A study of Mus musculus with 22 samples.

Results

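The genes of phase II conjugation encode the enzymes that attach a polar group to drugs, hormones, bile acids and reactive by-products, and 46 of them were followed here in the livers of mice without Trim24. The group was defined by symbol, as every gene named as a cytosolic glutathione S-transferase (Gst, classes a, k, m, o, p, t and z), a microsomal glutathione S-transferase (Mgst), a UDP-glucuronosyltransferase (Ugt) or a sulfotransferase (Sult). It was chosen with earlier results of these data known. The 46 genes, of 18194 named genes on the array, are 20 Gst, 3 Mgst, 10 Ugt and 13 Sult genes, each read by 1 probe set. The RefSeq catalogue holds 67 mouse genes with such names, and 21 of these had no probe set assigned to them alone, among them all 9 Ugt1a genes listed and 6 of 8 Sult2a genes. Signal reached 16, the constant that was added before taking logarithms, on all 22 arrays for 34 of the 46 genes, and stayed below it on all 22 for 1, Sult2b1.

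RNA from 1 liver per mouse was hybridised to each of 22 one-colour oligonucleotide arrays. Trim24 is a transcriptional co-regulator that binds nuclear receptors, Rara encodes retinoic acid receptor alpha, and the series asks how loss of Trim24 acts on interferon signalling and whether Rara is involved. The younger mice, aged 5 weeks, formed 3 groups of 4. These were wild type (WT), Trim24-/-, and the compound mutant Trim24-/- Rara+/-, which lacks Trim24 and keeps a single Rara allele. The older mice, aged 14 weeks, were 5 WT and 5 Trim24-/- animals. All came from intercrosses on a mixed C57BL/6 and 129/Sv background, so animals of 1 group may also differ in strain alleles, Trim24 had been inactivated by gene disruption, and no group with 1 Rara allele and intact Trim24 was included. The labels give no sex.

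Several facts of the whole series touch the results. The median signal was 12.6 to 16.1 on the arrays at 5 weeks and 19.7 to 25.9 at 14 weeks. Xist, transcribed from the inactive X chromosome, read 948 to 2169 at 5 weeks and 13.4 to 44.5 at 14 weeks, and the Y-linked Eif2s3y read 0.35 to 6.59 and 245 to 344. By both genes the arrays at 5 weeks read as female and those at 14 weeks as male. Age, this sex-linked pattern and the array set therefore cannot be told apart. The genotype comparisons each lie within an age, whereas the interaction and the comparison of WT ages span both. The hepatocyte markers gave summed signals of 45536 to 73527 on every array. The Trim24 probe set differed by 0.23, 0.55 and 0.43 on the log2 scale between mutants and WT, with limma adjusted p of 0.766, 0.593 and 0.457, and the Rara probe set by 0.32 between compound mutants and WT (adjusted p = 0.883). The Rara probe set was dim, at 2.74 to 27 in WT and 8.57 to 31.6 in compound mutants at 5 weeks. At such levels, around the constant of 16, log2 differences are compressed. The position of either probe set relative to the disrupted part is not known, so they check nothing.

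In liver, glutathione S-transferases join glutathione to electrophiles, glucuronosyltransferases join glucuronic acid to bilirubin, steroids and drugs, and sulfotransferases move sulfate from the donor PAPS onto phenols, steroids and bile acids. Many of these genes answer to the xenobiotic receptors CAR and PXR or to the oxidant-responsive factor NRF2, and several sulfotransferases and pi-class transferases are known for strong sex differences in mouse liver. A change in their RNA says nothing direct about enzyme activity.

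The start-site regions of the 4 glutathione transferase genes that passed the test at either age are shown first, because Gstp1 and Gstp3 lie close together on chromosome 19 and are compared throughout. Each is 300 bases from RefSeq on GRCm38.p6, written 5′ to 3′ along the gene, 250 before and 50 after the start, at chr19:4037863-4038162 (minus strand) for Gstp1, chr19:4059398-4059697 (minus) for Gstp3, chr6:42245685-42245984 (plus) for Gstk1 and chr19:47854723-47855022 (plus) for Gsto1. Capitals mark matches to any of 6 motifs searched on both strands.
Gstp1: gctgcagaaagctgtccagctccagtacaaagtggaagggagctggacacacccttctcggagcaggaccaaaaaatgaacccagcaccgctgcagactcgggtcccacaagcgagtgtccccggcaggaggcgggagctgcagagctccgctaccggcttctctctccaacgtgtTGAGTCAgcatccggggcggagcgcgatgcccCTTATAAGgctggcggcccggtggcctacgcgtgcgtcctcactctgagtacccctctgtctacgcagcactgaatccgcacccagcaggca
Gstp3: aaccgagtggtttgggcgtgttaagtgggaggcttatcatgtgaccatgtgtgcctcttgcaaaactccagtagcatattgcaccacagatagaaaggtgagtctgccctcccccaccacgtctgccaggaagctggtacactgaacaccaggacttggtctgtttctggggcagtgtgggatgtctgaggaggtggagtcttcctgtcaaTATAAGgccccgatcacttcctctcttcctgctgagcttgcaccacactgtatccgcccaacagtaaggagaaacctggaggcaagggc
Gstk1: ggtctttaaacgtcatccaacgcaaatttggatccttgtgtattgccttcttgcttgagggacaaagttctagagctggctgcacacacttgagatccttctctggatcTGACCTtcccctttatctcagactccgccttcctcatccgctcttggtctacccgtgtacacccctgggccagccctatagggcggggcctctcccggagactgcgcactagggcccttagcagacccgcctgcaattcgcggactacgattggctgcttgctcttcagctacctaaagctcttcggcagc
Gsto1: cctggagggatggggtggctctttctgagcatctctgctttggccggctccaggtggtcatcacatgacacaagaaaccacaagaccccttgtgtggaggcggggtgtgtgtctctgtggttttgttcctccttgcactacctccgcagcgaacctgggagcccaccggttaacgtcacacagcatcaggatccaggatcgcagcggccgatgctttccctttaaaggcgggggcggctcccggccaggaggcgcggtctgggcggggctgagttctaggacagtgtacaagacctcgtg
The Gstp1 region holds TGAGTCA, the AP-1 consensus, 74 bases before the start, and CTTATAAG, in which TATAAG, a variant of the TATA box, is read on both strands. Gstp3 has TATAAG at a like place but not TGAGTCA, and the aligned Gstp1 and Gstp3 regions shared 182 of 348 columns (52.3%). Gstk1 holds TGACCT, the reverse complement of the retinoid receptor element core AGGTCA, and Gsto1 held none of the 6. Over all 32851 promoters of this length, AGGTCA was present in 16.3%, TGAGTCA in 5.2% and TATAAG in 7.43%, against 18.9%, 13.2% and 13.2% of the 53 promoters of the 41 members with an entry, some of which have several. TGACNNNGC, the core of the antioxidant response element, was in 12.4% of all promoters and 7.55% of those of members, TTCNNNGAA, the STAT site, in 8.3% and 7.55%, and TATAAA in 13.6% and 18.9%. TGAGTCA and TATAAG were added after the sequences had been read, and a match is a description of letters, not of binding. Sult2a2 is not among the promoter entries used here.

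At 5 weeks, livers without Trim24 had more RNA of both pi-class transferases and less of the kappa-class transferase Gstk1 and the steroid sulfotransferase Sult2a2. Gstp3 was 2.68-fold and Gstp1 1.82-fold higher than in WT, Gstk1 was 1.48-fold lower and Sult2a2 6.72-fold lower. No glucuronosyltransferase and no microsomal transferase passed, and none had an unadjusted limma p under 0.05. The 2 members called higher compare with 0.473% of all genes called higher, and the 2 called lower with 0.126%, where a call is an adjusted p under 0.05 in limma over all 18194 genes.

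Gstp1 and Gstp3 encode pi-class enzymes, which conjugate small electrophiles and in the mouse are far more abundant in male than in female liver. Gstp1 signal was 5218, 5953, 6239.8 and 7204 in the WT animals (2WT, 44WT, 45WT and 90WT in the labels), and 12693, 9473, 10729 and 11874 in the Trim24-/- animals (1KO, 6KO, 8KO and 37KO). The lowest mutant stood above the highest WT animal. Means were 6154 ± 822 and 11192 ± 1401 (SD, n = 4 each), a log2 difference of 0.86 ± 0.13 (SE, 95% interval 0.59 to 1.13, limma adjusted p = 0.0142). Gstp3 signal was 312, 398, 282 and 160.1 in WT and 818, 729.9, 761 and 743 in Trim24-/-. Again the groups did not overlap, and the mutants lay closer together than the WT animals did. The Gstp3 difference was 1.42 ± 0.21 (0.96 to 1.88, adjusted p = 0.0146). Adjusted p for Gstp1 and Gstp3 was 0.0552 and 0.0582 without WT animal 45WT, 0.0504 and 0.0522 without Trim24-/- animal 8KO, and 0.0532 for Gstp3 without animal 1KO. Gstp2, the protein-coding gene beside them, had no probe set of its own, and whether the Gstp1 probe set also detects it was not tested.

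Gstk1, a transferase of mitochondria and peroxisomes, read 1983, 2560.3, 2292 and 1849 in WT and 1527, 1355, 1499 and 1429 in Trim24-/-. All 4 mutants were below all 4 WT animals. The difference was -0.56 ± 0.11 (-0.80 to -0.33, adjusted p = 0.0387), and this call was lost in 16 of 24 alternative analyses, where adjusted p ran from 0.0207 to 0.162. Gstk1 lies on chromosome 6 with Trim24, with 50 measured genes between them. Trim24 and the genes with at most 60 measured genes between them and Trim24 number 123. Of these, 2 rose and 1 fell at 5 weeks, the last being Gstk1 itself, with a median difference of -0.01. Over all genes 0.473% rose and 0.126% fell.

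Sult2a2 encodes a hydroxysteroid sulfotransferase of the group that sulfates bile acids and DHEA. Its signal was 2071, 8539, 5655 and 3475 in WT and 843, 339.5, 442 and 1219.6 in Trim24-/-. The WT animals spread widely, yet none came down to the highest mutant. The difference was -2.75 ± 0.43 (-3.69 to -1.81, adjusted p = 0.0191), and adjusted p was 0.0715 without WT animal 45WT and 0.071 without Trim24-/- animal 8KO. Only 2 of the 8 catalogued Sult2a genes had their own probe set, and the close sequences of this subfamily make it uncertain which of them the Sult2a2 probe set reads, which was not tested. The other measured one, Sult2a8, which sulfates bile acids, differed by -0.45 (adjusted p = 0.525).

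**Figure D1:**
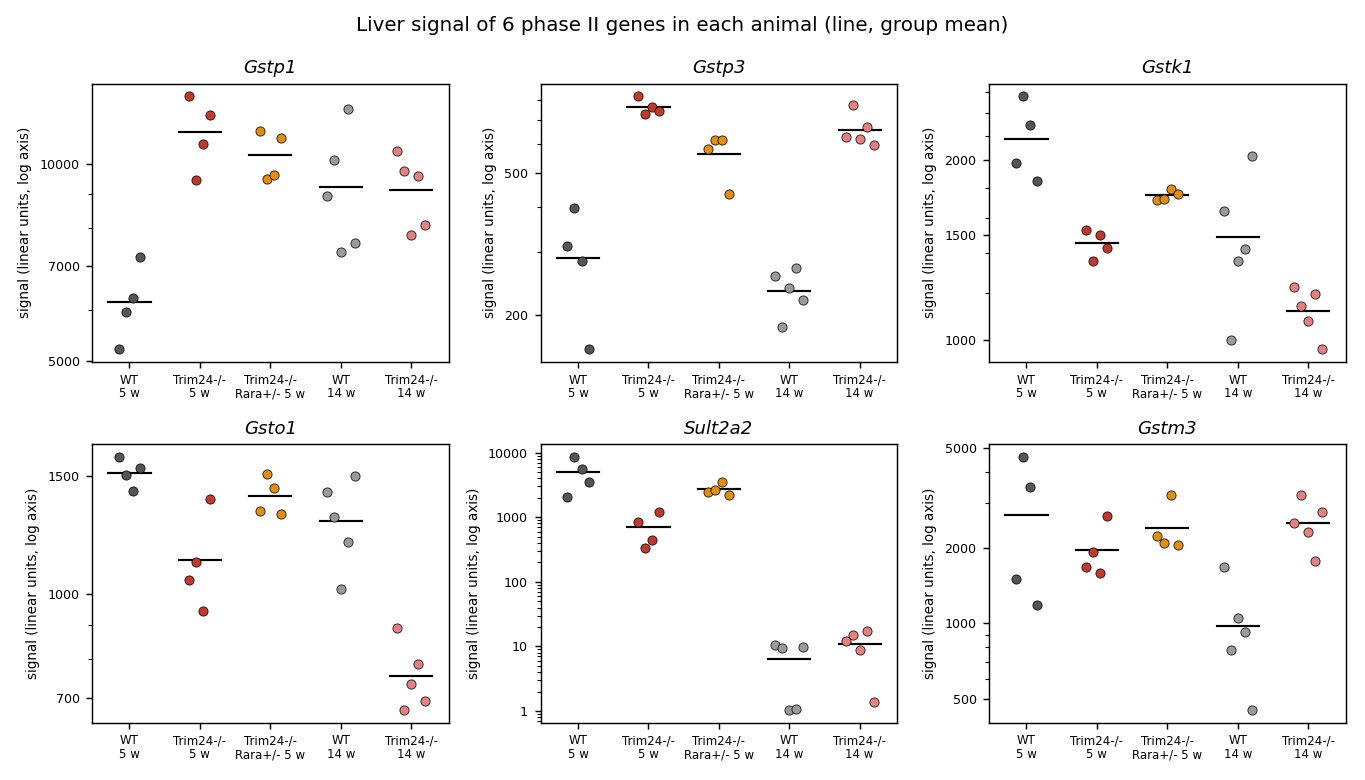
Signal of 6 phase II genes (vertical axis, linear units on a log axis) in each of the 22 animals by group (horizontal axis), with dots for animals and lines for group means. At 5 weeks the Trim24-/- dots lie wholly above WT for Gstp1 and Gstp3 and wholly below WT for Gstk1, Gsto1 and Sult2a2, and at 14 weeks they are apart for Gstp3, Gsto1 and Gstm3.

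Among the members that did not pass at 5 weeks, Gsto1, an omega-class enzyme that reduces dehydroascorbate and methylated arsenic, came nearest. It read 1600.1, 1502, 1424 and 1543 in WT and 1048, 1116, 943 and 1384 in Trim24-/-, with no overlap, and differed by -0.44 ± 0.12 (adjusted p = 0.144). Without Trim24-/- animal 37KO the difference was -0.55 and passed (adjusted p = 0.0345), in 1 of 24 alternatives, and in the other 23 it did not (adjusted p up to 0.33). The theta-class Gstt3 also had no overlap, at -0.51 ± 0.19 (adjusted p = 0.321). In all, 2 members lay apart upward and 4 downward, 13% of the 46, against 5.52% of all genes.

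Sult3a1, an amine sulfotransferase with strong female bias in mouse liver, rested on 1 animal. WT signals were 280.0, 20.8, 114 and 6827, the last in animal 90WT, whereas the Trim24-/- animals read 2746, 3302, 2605 and 4307. With all 4 WT animals the difference was 3.35 ± 1.12 (0.93 to 5.77) and did not pass (adjusted p = 0.269). Without animal 90WT it was 4.83, and it passed (adjusted p = 0.00266). The same animal had the lowest WT signal for 19 of the 38 members with a mean signal of at least 16, against 30.4% of bright genes.

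Seen as families, 13 members had positive and 33 negative differences at 5 weeks, with a median of -0.10 against -0.01 over all genes. The cytosolic transferases leaned lower, 17 of 20 negative with a median of -0.13, and the 3 positive ones included both called pi-class genes. All 7 mu-class genes (Gstm) were negative, median -0.20, and none passed. Of the 13 sulfotransferases 8 were negative (median -0.06), and of the 10 glucuronosyltransferases 6 (median -0.07). Among the 8 members brightest on average over the arrays of both ages, only Gstp1 passed, whose probe set was the brightest of the cytosolic transferases. The others had values of -0.13 for Gstm1, -0.05 for Gsta3, -0.08 for Mgst1 and 0.16 for Ugt2b5. For Ugt2b36 the value was -0.02, for Sult1a1 -0.06 and for Sult2a8 -0.45. Sult2a2, which passed, ranked lower over both ages. In WT at 5 weeks alone, however, its mean signal was 4935, close to the 4951 of Sult1a1. For 32 of the 42 members not called, the 95% interval lay within 1 log2 unit of 0. For those read well above 16, a 2-fold difference in signal lay outside such an interval. For dim members such as Sult2b1, an interval this narrow does not exclude a large difference in signal.

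**Figure D2:**
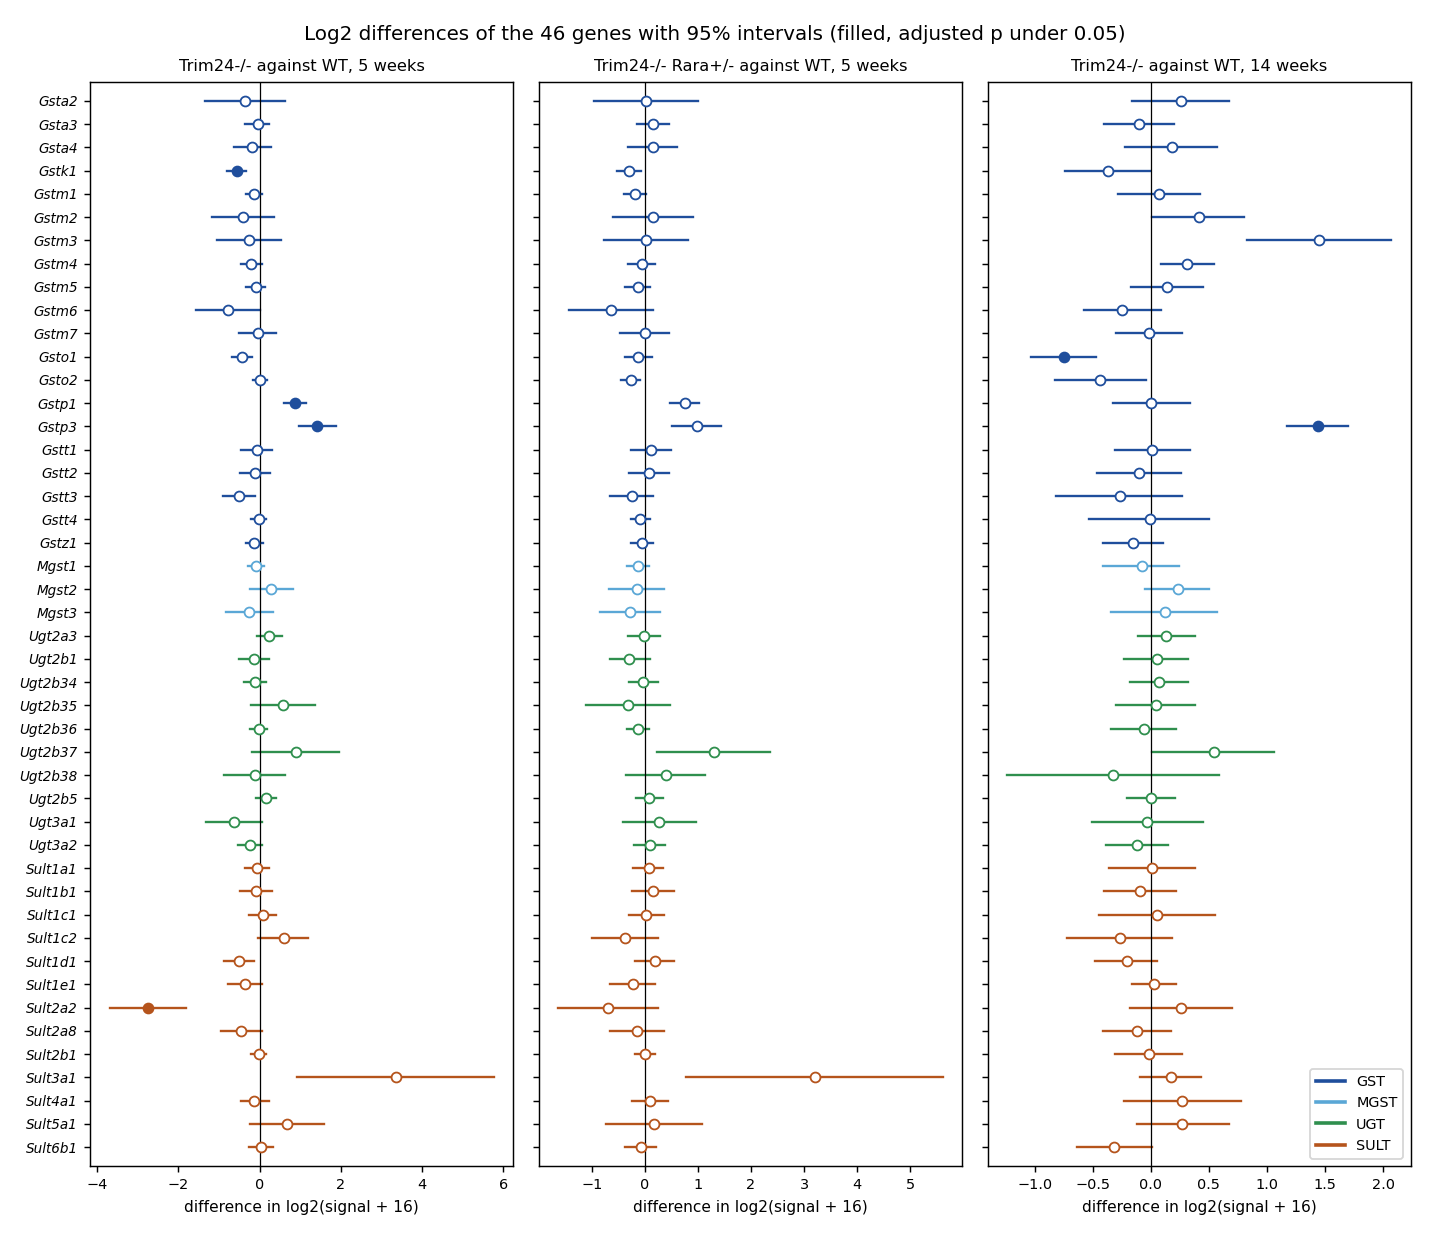
Log2 difference with its 95% interval (horizontal axis) for each of the 46 genes (vertical axis) in Trim24-/- against WT at 5 weeks, Trim24-/- Rara+/- against WT at 5 weeks and Trim24-/- against WT at 14 weeks, with filled dots for an adjusted p under 0.05 and a different horizontal scale in each panel. Filled dots stand for Gstp1, Gstp3, Gstk1 and Sult2a2 at 5 weeks and for Gstp3 and Gsto1 at 14 weeks, and the middle panel has none.

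In livers that lacked Trim24 and 1 Rara allele, no phase II gene passed the test against WT, and none passed against Trim24-/- either. The point values of the 4 genes called in Trim24-/- nevertheless differed: those of Gstp1 and Gstp3 stayed well above WT, that of Gstk1 lay between both groups, and that of Sult2a2 lay much nearer WT. All 3 groups at 5 weeks entered the same fit, and both comparisons reuse the WT or the Trim24-/- arrays of the comparison above. Against WT, 0.0495% of all genes were called higher and 0.0055% lower. At an unadjusted p under 0.05 in limma 4 members were higher and 2 lower, against 566 higher and 787 lower of all 18194 genes. Against Trim24-/-, 0.0385% of genes were called higher and 0.104% lower. At an unadjusted p under 0.05 in limma 6 members were higher and 3 lower, against 789 higher and 1300 lower of all genes.

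Gstp1 read 11216, 9495, 9641 and 10944 in the compound mutants (animals 54R, 66R, 73R and 82R), all above the 4 WT animals and inside the range of Trim24-/-. Against WT the difference was 0.75 ± 0.13 (1.68-fold, adjusted p = 0.0669), and against Trim24-/- it was -0.11 (-0.38 to 0.16, adjusted p = 0.81). Gstp3 read 581 to 617 in 3 of them and 436 in animal 82R, above every WT animal and below every Trim24-/- animal. It differed by 0.98 ± 0.21 from WT (adjusted p = 0.157) and by -0.44 from Trim24-/- (adjusted p = 0.46). The Gstp1 difference from WT passed in 5 alternatives, among them with Trim24-/- animal 6KO left out (adjusted p = 0.0373).

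Sult2a2 read 2487, 2611, 3526 and 2233 in the compound mutants, inside the WT range and above all Trim24-/- animals. It was 4.17-fold higher than in Trim24-/- (2.06 ± 0.43, adjusted p = 0.0811) and differed from WT by -0.69 ± 0.43 (-1.63 to 0.25, adjusted p = 0.79). Without Trim24-/- animal 37KO the difference from Trim24-/- passed (adjusted p = 0.0351), and it also passed in a fit of all 22 arrays (adjusted p = 0.00965). Sult1d1, which sulfates dopamine and other catechols, read 2484, 2277, 3076 and 2721 against 1530.4, 1719, 1605 and 1604 in Trim24-/-. The groups were apart, by 0.70 ± 0.17 (1.62-fold, adjusted p = 0.114). Gstk1 read 1718, 1723, 1791 and 1759, above every Trim24-/- and below every WT animal, at 0.27 ± 0.11 from the former (adjusted p = 0.355) and -0.30 ± 0.11 from the latter (adjusted p = 0.544).

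Other members stood apart from Trim24-/- in the compound mutants without passing. Sult1c2, a phenol sulfotransferase, read 102, 100.4, 128 and 101 against 272, 206, 286 and 155, a difference of -0.96 ± 0.28 (adjusted p = 0.192). Ugt3a1, which uses sugar donors other than glucuronic acid, differed by 0.90 ± 0.32 (adjusted p = 0.276), with a signal of 96.3 in Trim24-/- animal 6KO and 257 to 279 in the other 3. Sult3a1 read 2736, 2503, 3518 and 2776, near Trim24-/- and far above 3 of 4 WT animals, with 3.20 ± 1.12 against WT (adjusted p = 0.522). Without WT animal 90WT this difference was 4.68 and passed (adjusted p = 0.00309). Members apart from Trim24-/- numbered 5 higher and 3 lower, 17.4% of 46 against 8.46% of all genes. Those apart from WT numbered 2 and 2, 8.7% against 4.62%. Over the 38 brighter members the median within-group SD of log2 signal was 0.15 among the compound mutants, against 0.39 in WT and 0.25 in Trim24-/- at 5 weeks. Over all bright genes it was 0.14, 0.20 and 0.19, lowest in the compound mutants as well.

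**Figure D3:**
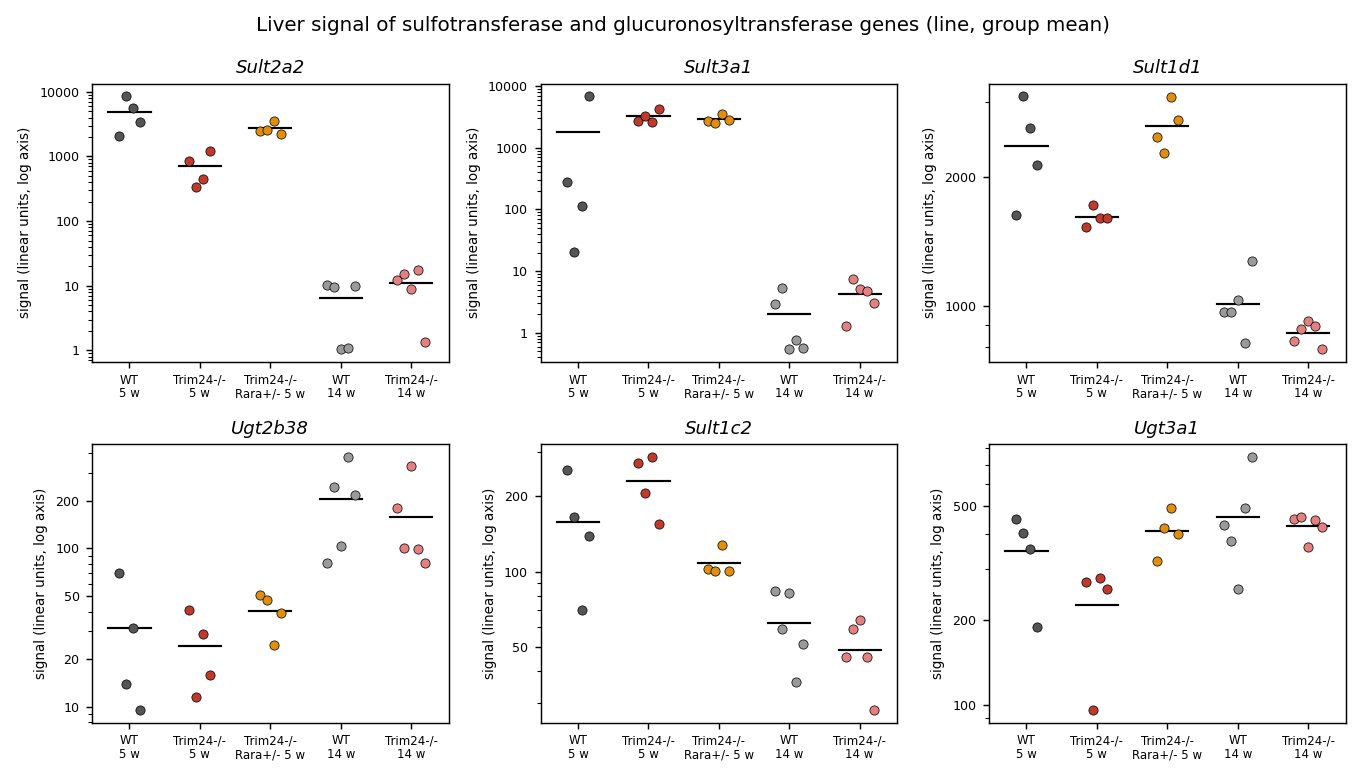
Signal of 4 sulfotransferase and 2 glucuronosyltransferase genes (vertical axis, linear units on a log axis) in each animal by group (horizontal axis), with dots for animals and lines for group means. The Sult2a2 and Sult1d1 dots of Trim24-/- Rara+/- lie above those of Trim24-/-, 1 WT animal stands far above the other 3 for Sult3a1, and both Sult2a2 and Sult3a1 are near the bottom of the scale at 14 weeks.

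At 14 weeks Gstp3 was again higher and Gsto1 was lower in livers without Trim24, and no other phase II gene passed. Gstp3 was 2.71-fold higher and Gsto1 1.68-fold lower than in WT of that age. Gstp1, called at 5 weeks, had nearly equal means in both genotypes at 14 weeks. Over all genes 0.181% were called higher and 0.0605% lower, against 1 and 1 of the 46. Members that lay apart numbered 3 higher and 1 lower, 8.7% against 1.78% of all genes.

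Gstp3 read 256, 185, 238, 270.2 and 219.5 in the 5 WT animals, in the order of the labels, and 629.6, 772, 620.5, 671 and 597 in the 5 Trim24-/- animals. Every mutant exceeded every WT animal by a wide margin. The difference was 1.44 ± 0.12 (1.17 to 1.70, limma adjusted p = 0.000225), and it passed in all 18 alternatives run (adjusted p 2.54e-05 to 0.00348). Gsto1 read 1420.0, 1302, 1019, 1194 and 1500.2 in WT and 889, 672, 734, 787 and 693 in Trim24-/-, again with no overlap. The difference was -0.75 ± 0.13 (-1.03 to -0.47, adjusted p = 0.0375). A second Gsto1 probe set gave -0.43, and the call was lost in 10 of 18 alternatives, including 8 of the 10 that left out 1 animal (adjusted p 0.00119 to 0.123 over all 18).

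Gstm3, a mu-class transferase, was 2.73-fold higher in Trim24-/- at 14 weeks without passing the threshold. WT animals read 1669.5, 779, 1043, 922 and 450.2, and Trim24-/- animals 2502, 3232, 2306, 1762 and 2773. The groups did not overlap, and the WT animal named first was nearest the mutants. The difference was 1.45 ± 0.29 (0.83 to 2.07, adjusted p = 0.0787), and without that animal it was 1.67 and passed (adjusted p = 0.0244). A second probe set gave 1.46. Gstm4 also lay apart, by 0.31 ± 0.10 (adjusted p = 0.362). Of the 7 mu-class genes 5 were positive at this age, with a median of 0.14.

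Gstp1 at 14 weeks read 8956, 10146, 7347, 12149 and 7576 in WT and 10455, 9759, 7799.5, 9587 and 8084 in Trim24-/-, fully overlapping, with a difference of 0.00 ± 0.15 (-0.33 to 0.34, adjusted p = 0.999). Gstk1 read 1643, 1000.5, 1355, 1424 and 2033 against 1228, 1141, 1075, 1196 and 966. The mutant mean was lower again, at -0.37 ± 0.17, but the groups overlapped and the difference did not pass (adjusted p = 0.596). Sult2a2 was at 1.04 to 10.4 in WT and 1.36 to 17.2 in Trim24-/-, near the bottom of the scale, where a difference in log2(signal + 16) is compressed (0.26, adjusted p = 0.796). Over the 44 members not called, the 95% interval lay within 1 log2 unit of 0 for 41, and the median of all 46 was 0.01 against 0.00 over all genes. For dim members such as Sult2a2, an interval this narrow does not exclude a large difference in signal.

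**Figure D4:**
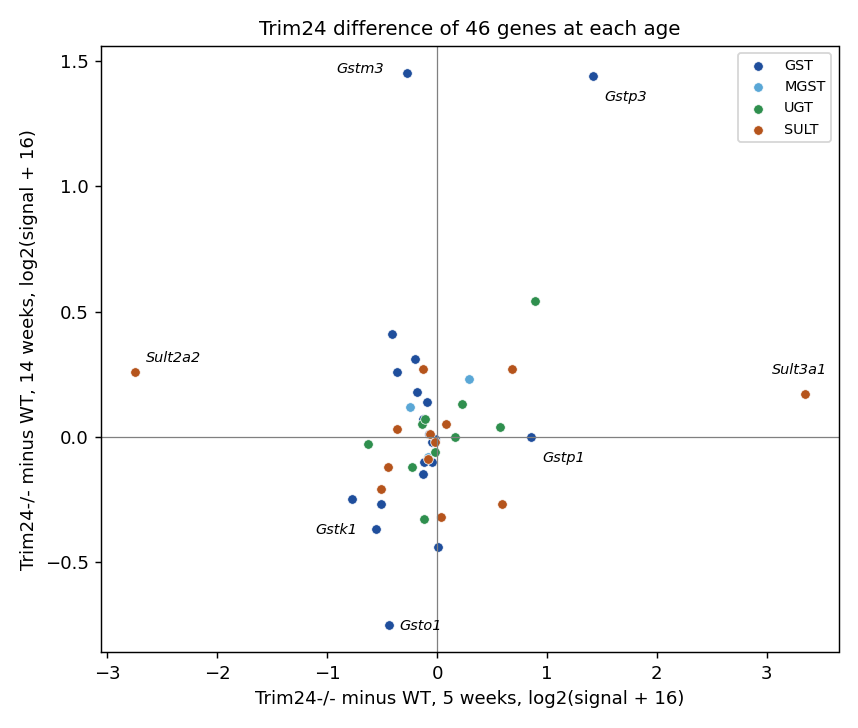
Log2 difference of Trim24-/- from WT at 5 weeks (horizontal axis) against that at 14 weeks (vertical axis) for the 46 genes, 1 dot per gene. Gstp3 lies at 1.42 and 1.44, Gsto1 is below 0 at both ages, Gstp1 lies at 0.86 and 0.00, and Sult2a2 lies at -2.75 and 0.26.

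Whether the genotype difference itself differed between the ages was tested as an interaction in a fit of all 22 arrays. The sex-linked pattern and the array set differ with age here, as between WT ages, so neither comparison isolates age. No member with signal at both ages passed. Sult2a2 passed, at 3.01 ± 0.49 (1.99 to 4.03, limma adjusted p = 0.0127), but at 14 weeks it read below 16 on 9 of 10 arrays, so the value restates its difference at 5 weeks and tests no change with age. The count of 1 stands against 0.0275% of genes called higher and 0.0055% lower. The Sult2a2 value was 2.88 without WT animal 45WT (adjusted p = 0.057) and 2.85 without Trim24-/- animal 8KO (adjusted p = 0.0544), and with a constant of 1 it was 3.58 (adjusted p = 0.412). Sult3a1, as dim at 14 weeks, was at -3.18 (adjusted p = 0.635), and at -4.66 without WT animal 90WT (adjusted p = 0.000111). Gstp1 differed between the ages by -0.86 ± 0.20 and did not pass (adjusted p = 0.255). Gstp3 differed by 0.02 ± 0.25 (-0.50 to 0.53, adjusted p = 0.997) and Gstk1 by 0.19 (adjusted p = 0.938). Gstm3 differed by 1.72 ± 0.49 (adjusted p = 0.391), and all 7 mu-class genes had positive interaction values, with a median of 0.52. The sign of the difference was the same at both ages for 28 of the 46 members (60.9%) and for 56.8% of all genes.

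WT livers at 14 weeks differed from WT livers at 5 weeks in 20 of the 46 phase II genes, 3 higher and 17 lower, mostly sulfotransferases and glutathione transferases. Over all genes the split ran the other way, 19.7% higher and 8.63% lower, with a median of 0.13 against -0.26 for the members. Lower were 7 of 13 sulfotransferases (median -0.53), all 3 microsomal transferases (-0.59, though Mgst1 gave 0.04 with the mean of its probe sets), 5 of 20 cytosolic transferases (-0.14) and 2 of 10 glucuronosyltransferases (-0.22). Among them, the dim Mgst2 and Sult1e1 were below 16 on 19 and 21 arrays. With the mean of their probe sets, Mgst3 (-0.24, limma adjusted p = 0.394) and Ugt2b34 (-0.10, limma adjusted p = 0.534) did not pass. Members apart between the ages numbered 3 higher and 8 lower, 23.9% against 19.1% of all genes. When each array was quantile-normalised or centred, the members split 2 higher and 16 lower, and 1 higher and 24 lower, while the median of all genes moved to 0.00 and -0.11.

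Sult2a2 read 4935 ± 2819 (n = 4) in WT at 5 weeks and 6.39 ± 4.88 (n = 5) at 14 weeks. The log2 difference was -7.63 ± 0.35 (limma adjusted p = 1.6e-12), or -9.59 and -5.97 with constants of 1 and 64. Sult3a1 read 0.542 to 5.42 at 14 weeks and differed by -4.13 ± 0.82 (adjusted p = 0.000928), or by -2.65 without WT animal 90WT. Both are known as female-biased genes. Sult1d1 read 968, 968, 1031, 820.1 and 1274 at 14 weeks, below all 4 younger animals, and was 2.28-fold lower (-1.19 ± 0.15, adjusted p = 1.04e-05). Gstm3 differed by -1.36 (adjusted p = 0.00586), Sult1c2 by -1.07 (adjusted p = 0.00414) and Gstt3 by -1.04 (adjusted p = 0.00247). Sult1a1, the main phenol sulfotransferase of liver, was lower by 0.65 (adjusted p = 0.00442) and Gstk1 by 0.56 (adjusted p = 0.00623).

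Ugt2b38, a glucuronosyltransferase of the steroid-conjugating 2B group, had the largest positive difference between WT ages. It read 70.4, 14, 31.5 and 9.57 at 5 weeks and 81.2, 243, 103, 377 and 218 at 14 weeks, a 4.61-fold difference (2.21 ± 0.41, adjusted p = 0.00057) with no overlap. Gstp1 was 1.48-fold higher at 14 weeks (0.57 ± 0.14, adjusted p = 0.00539), and 2 of the 5 WT animals at that age read above the lowest Trim24-/- animal of 5 weeks. Gstp3 did not pass (-0.23, adjusted p = 0.342), but without WT animal 90WT it was -0.47 and passed (adjusted p = 0.0193). The third gene called higher, Sult6b1, was below 16 on 21 arrays. Summed over the 13 genes, sulfotransferase signal was 14028 to 22996 in WT at 5 weeks and 7475 to 8858 at 14 weeks, while the summed glutathione transferase signal lay between 33021 and 46724 over all animals.

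**Figure D5:**
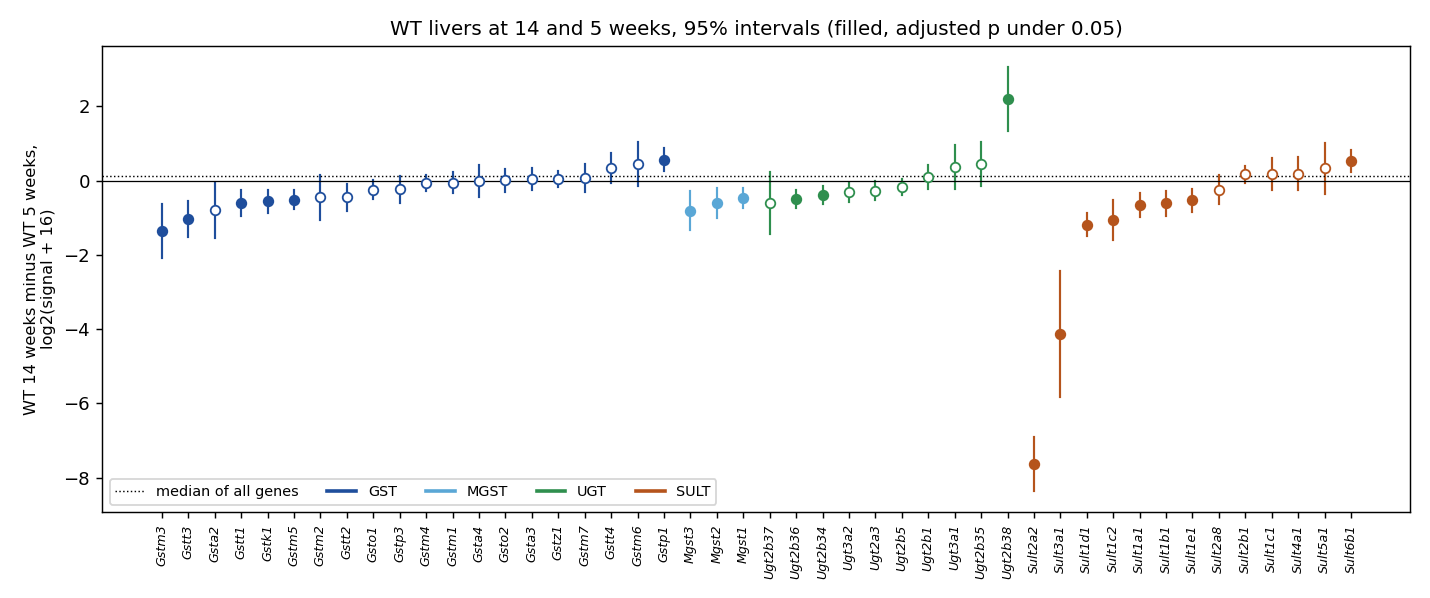
Log2 difference of WT livers at 14 weeks from WT livers at 5 weeks (vertical axis, with 95% intervals) for each of the 46 genes (horizontal axis), coloured by family, filled for an adjusted p under 0.05, with a dotted line at the median of all genes. Filled dots below 0 number 17, among them all 3 microsomal transferases and 7 of 13 sulfotransferases, and Ugt2b38, Gstp1 and Sult6b1 are filled above 0.

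The supply side of conjugation held no called gene in Trim24-/- against WT at either age. At 5 weeks the 11 measured genes of glutathione supply had a median of 0.01, the 5 of UDP-glucuronate supply 0.06 and the 8 of sulfate donor supply 0.05 in Trim24-/- against WT, and at 14 weeks -0.11, 0.09 and 0.08. None of these genes passed in either comparison, and neither did any of the 13 other conjugating enzymes (medians -0.08 and -0.10) or the 17 regulators (-0.15 and -0.00). The 12 NRF2 targets outside the families had medians of 0.27 and 0.16, 9 and 10 of them positive, and none passed. At an unadjusted limma p under 0.05 there were 3 higher NRF2 targets at each age, and 2 higher and 1 lower genes of the 3 supply lists at each age. Of all 18194 genes, 1112 were higher and 860 lower at that threshold at 5 weeks, and 847 and 651 at 14 weeks. Of the 12 CAR and PXR targets (medians -0.30 and 0.01), 10 were negative at 5 weeks, with 3 lower at an unadjusted limma p under 0.05 and none called. The lowest value, -3.80, was that of Cyp2c37, which read 4981 to 6237 in WT. In Trim24-/- its median was 139, but its highest animal read 6923. At 14 weeks 5 of the 12 targets were negative and 1 fell, the conjugate exporter Abcc3, at -1.16 ± 0.20 (2.24-fold lower, limma adjusted p = 0.0352). Over all genes 0.0605% were called lower at that age.

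Sex-biased and cell type markers moved beside these results. Of 12 male-biased liver genes, 4 rose in Trim24-/- at 5 weeks, against 0.473% of all genes. Another 4 were negative, down to -0.66, and the median was 0.54. Of the negative genes, 2 were lower at an unadjusted limma p under 0.05, against 860 of all 18194 genes. Those that rose were the steroid hydroxylase Cyp7b1 by 2.31 (limma adjusted p = 0.000123), Cyp2u1 by 2.48 (adjusted p = 0.00032), complement C6 by 2.83 (adjusted p = 0.000275) and Cyp2d9 by 2.01 (adjusted p = 0.02). The summed signal of the 12 was 4121 to 11819 in WT, 14728 to 20483 in Trim24-/- and 14660.4 to 17472 in Trim24-/- Rara+/-. Against WT 3 of the 12 rose in the compound mutants, C6, Cyp2u1 and Cyp7b1, against 0.0495% of all genes. At 14 weeks 1 of the 12 rose, Cyp2u1 (1.05, adjusted p = 0.0249), against 0.181% of all genes. The 11 female-biased genes had medians of -0.08 and 0.09, 4 and 10 of them positive, and none passed at either age. At an unadjusted limma p under 0.05, 0 were higher and 1 lower at 5 weeks, and 3 higher and 0 lower at 14 weeks. All 18194 genes had 1112 higher and 860 lower at 5 weeks, and 847 and 651 at 14 weeks. Between WT ages 11 of the 12 male-biased genes were higher and 9 of the 11 female-biased genes lower, medians 2.57 and -2.27. Over all genes 19.7% were called higher and 8.63% lower between WT ages. The part of these patterns in the differences of Gstp1, Gstp3, Sult2a2 and Sult3a1 was not tested.

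Among 10 pericentral hepatocyte markers, Oat, ornithine aminotransferase, fell in Trim24-/- at both ages (-1.23 ± 0.20, limma adjusted p = 0.0194, and -1.02 ± 0.11, adjusted p = 0.00152), with list medians of -0.12 and -0.13. Over all genes 0.126% and 0.0605% were called lower. At an unadjusted limma p under 0.05, 3 and 4 of the 10 were lower and 0 higher, against 860 and 651 lower of all 18194 genes. Of 15 macrophage markers, 13 were positive at 5 weeks and 15 at 14 weeks (medians 0.33 and 0.44). Only Mpeg1 passed, at 5 weeks (1.69, limma adjusted p = 0.0275), where 0.473% of all genes were called higher. At an unadjusted limma p under 0.05, 4 markers were higher and 1 lower at 5 weeks, and 10 higher and 0 lower at 14 weeks. Of all 18194 genes, 1112 were higher and 860 lower at 5 weeks, and 847 and 651 at 14 weeks. The summed signal of the macrophage markers was 4917 to 9768 in WT and 6563 to 13125 in Trim24-/- at 5 weeks, and 4446 to 5730.2 and 5207 to 9668 at 14 weeks. The 7 cholangiocyte markers had a summed signal of 55.23 to 173 on all arrays. In whole liver, fewer cells of a type and less RNA per cell cannot be told apart, and the part of other cell types in the transferase differences was not tested.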

How the data were processed

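The authors deposited intensity values, linear signal for 45101 probe sets on 22 arrays, 1 liver each. Every array has the same mean after trimming 2% from each end (100.001), so the deposited intensity values had been scaled; software, background correction, scan dates and slides are not stated in these sources. Values were not rescaled. Each array holds a different animal by its label, and nothing says how RNA preparations were grouped. Groups and animal names came from the labels, and values of the animals at 14 weeks are given in the order of the labels.

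A probe set named a gene only where the array's annotation pairs it with 1 symbol (34958; 932 have several and 9211 are not listed), and each of 18194 genes was represented by the probe set with the highest mean log2(signal + 16). The constant 16 compresses differences of dim genes, and all fold changes are on that scale. The package data.table (version 1.17.8) read the values, and limma 3.58.1 under R 4.3.3 fitted the 12 arrays at 5 weeks, the 10 at 14 weeks and all 22 for the interaction and the WT ages, and p was adjusted by Benjamini-Hochberg over all genes. The fits were tested on simulated data. Values after ± are SD for signals and SE for log2 differences, and intervals are 95%. The number of arrays and the spread between animals limit the precision.

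Named members were the pi-class pair, Gstk1, Sult2a2, every called gene (up to the 10 largest in each direction where over 30 were called), the 5 uncalled with the smallest p per comparison and the 3 brightest per family; up to 4 called genes were named per list. Other members given with values (Sult2a8, Gstm4 and some in flagged results) were chosen after their values were seen. The members and lists were chosen with earlier results of these data known. Promoters came from RefSeq (GRCm38.p6). Alternatives were other scalings, constants, filters, probe set rules, array sets, a variance trend, and each array left out.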

Additional observations from a re-analysis of the deposited data

Results flagged for a closer look

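Single animals stood far from the rest of their group for 7 member and group pairs of 160 tested, where chance alone flags about 1 in 20 groups. In Trim24-/- at 5 weeks animal 6KO was low for Gstt1, at 2359 with the other 3 animals at 3454 to 3527, and for Ugt3a1, at 96.3 with the others at 257 to 279. In Trim24-/- Rara+/- animal 73R was high for Sult1c2, at 128 with the others at 100.4 to 102, and low for Ugt2b37, at 58.5 with the others at 209.8 to 254. In WT at 5 weeks animal 90WT was low for Ugt3a2, at 2483 with the others at 3315 to 3354. In WT at 14 weeks the fourth animal in the order of the labels was low for Gstt2, at 967 with the others at 1257 to 1316, and the first was high for the dim Sult6b1, at 20.3 with the others at 8.41 to 10.1.

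Sult2a2 passed the test of genotype by age, at 3.01 on the log2 scale (limma adjusted p = 0.0127, and 0.412 with a constant of 1). It was near the bottom of the scale at 14 weeks in both genotypes, so the value restates the difference at 5 weeks and does not show a change with age.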

How the results depend on the processing

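Of 1848 alternative values for named members, 1734 kept direction and side of the threshold, 60 lost the call, 40 gained one and 14 changed sign. At 5 weeks in Trim24-/- against WT, the 2 lower calls became 0 with a constant of 1, 1 with all 22 arrays in the fit, and 0 with the 8 arrays alone, with compound mutants 54R, 66R and 82R averaged or with Trim24-/- animals 1KO and 8KO averaged. The 2 higher calls became 0 with the 8 arrays alone and 1 with animals 1KO and 8KO averaged. With 1 animal left out, calls ranged from 0 to 3 higher and 0 to 2 lower. Without WT animal 45WT or Trim24-/- animal 8KO all 4 calls were lost, with adjusted p of 0.113 and 0.0914 for Gstk1. Over all 24 alternatives adjusted p ran from 0.00356 to 0.0735 for Gstp1, 0.000195 to 0.0735 for Gstp3 and 0.000308 to 0.091 for Sult2a2. For the compound mutants against WT, higher calls were 1 after quantile normalisation, 1 among genes of above-median brightness, 2 with all 22 arrays, 2 without WT animal 90WT and Trim24-/- animal 6KO, and 0 to 1 with 1 animal left out. Against Trim24-/- they were 1 among brighter genes, 2 with all 22 arrays and 0 to 1 with 1 left out. At 14 weeks higher calls were 2 among brighter genes, with all 22 arrays and with a variance trend, and 1 to 2 with 1 animal left out. Lower calls were 0 with a constant of 1 or the mean of all probe sets (Gsto1 -0.59, adjusted p = 0.0556), and 0 to 1 with 1 left out. The interaction had 0 higher calls with a constant of 1 (Sult2a2 3.58, adjusted p = 0.412), 1 lower call after quantile normalisation (Gstp1 -0.74, adjusted p = 0.0479) and without animals 90WT and 6KO, and 0 to 1 in each direction with 1 left out. Between WT ages, higher calls were 1 after centring. Signs changed for Gstp1 at 14 weeks (-0.02 after centring, -0.07 to 0.11 with 1 animal left out), the Gstp3 interaction (-0.15 to 0.26 with 1 left out) and Mgst1 between WT ages (0.04 with the mean of all probe sets). The averaged animals were chosen after the arrays were seen, and the cause of these changes was not tested. Their arrays were the most alike of their groups. Over bright genes the correlation of log2 signal was 0.9876 for 1KO and 8KO, against 0.9538 to 0.9661 for other Trim24-/- pairs. It was 0.9871 to 0.9924 among 54R, 66R and 82R, against 0.9793 to 0.9800 for pairs with 73R. Whether these arrays are independent replicates was not tested. No paired analysis was possible because the numbers in the labels name animals and are not shared between groups. A background correction and slide or scan blocks could not be run, since neither is given.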

Other observations

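Some family genes share probe sets and were left out of the 46. The 3 probe sets that name 8 Ugt1a genes each, the group that conjugates bilirubin and many drugs, differed by -0.20 to 0.13 on the log2 scale over the 4 genotype comparisons, and none passed the test in limma. The probe set shared by Gsta1, Gsta2 and Gm3776 differed by -0.17 at 5 weeks and 0.48 at 14 weeks in Trim24-/- against WT (limma adjusted p = 0.964 and 0.735). The probe set shared by Ugt2a1 and Ugt2a2 differed by -0.10 and 0.65 (adjusted p = 0.936 and 0.484).

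Animals of 1 group were not high or low evenly. Among the 38 members with a mean signal of at least 16, WT animal 44WT was the highest of its group for 16 (21.6% of bright genes), Trim24-/- animal 6KO the lowest of its group for 19 (33.4%), and Trim24-/- Rara+/- animal 73R the highest of its group for 17 (31.2%).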
